A study of Mus musculus with 12 samples.

Results

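The 36 genes described here mark T cells, natural killer (NK) cells, B cells and plasma cells, the lymphocytes, and were read from RNA of whole mouse kidney. They were found by symbol among the 39171 rows of the count table, where 35 of the 36 had a row. Jchain was found by its gene ID alone, under its older symbol Igj, and is described apart from the counts over the 35. Of the 35, 29 had counts high enough to be tested, and Gzmb, Prf1, Klrd1, Ms4a1, Blk and Tbx21 did not. The kidneys came from male mice of at most 3 months of age in 3 groups of 4, with 1 library per mouse. These were wild-type mice, mice labelled GNE M743T/M743T knock in with the phenotype healthy, and mice with that same label and the phenotype sick. Both knock-in groups thus carry the M743T substitution on both alleles of Gne, the gene of the enzyme that starts sialic acid synthesis. They differ in a phenotype that the submitters assigned. The labels say neither what made a mouse sick, nor the strain, nor whether mice were littermates. The design asks how kidney expression differs between the 3 states. Levels are in CPM, counts relative to the effective library size, in the order of mouse 1 to mouse 4 of a group.

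A T cell senses antigen through a receptor whose signal is carried by the CD3 and zeta chains, with CD4 or CD8 as coreceptor and the kinases Lck and ZAP-70 and the adaptor LAT behind them. CD28 and ICOS add to that signal, and CTLA-4 and PD-1 hold it back and appear on T cells after activation. NK cells and cytotoxic T cells kill through granzymes and perforin, and B cells sense antigen through a receptor that signals by CD79A and CD79B. A healthy kidney holds few lymphocytes, scattered between tubules and vessels, and in many kidney diseases they gather there.

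The promoters of 6 members are shown because the results turn on these genes. Il7r, Pdcd1 and Ctla4 were higher in sick mice than in either other group, Cd3d and Cd3e encode chains of the same receptor from neighbouring genes, and Cd79a was the member that was lower in sick than in healthy knock-in mice. Each sequence is from RefSeq, build GRCm38.p6, and runs 5′ to 3′ on the strand of its gene, with 250 bases before and 50 after the start. They lie at chr15:9529827-9530126 (minus strand) for Il7r, chr1:94052504-94052803 (minus strand) for Pdcd1 and chr1:60908775-60909074 (plus strand) for Ctla4. The others lie at chr9:44981536-44981835 (plus strand) for Cd3d, chr9:45009562-45009861 (minus strand) for Cd3e and chr7:24897247-24897546 (plus strand) for Cd79a. Capitals mark the letters AGGAAG or their reverse complement CTTCCT, a core bound by ETS factors, and TGTGGT or ACCACA, a core bound by RUNX factors.
Il7r: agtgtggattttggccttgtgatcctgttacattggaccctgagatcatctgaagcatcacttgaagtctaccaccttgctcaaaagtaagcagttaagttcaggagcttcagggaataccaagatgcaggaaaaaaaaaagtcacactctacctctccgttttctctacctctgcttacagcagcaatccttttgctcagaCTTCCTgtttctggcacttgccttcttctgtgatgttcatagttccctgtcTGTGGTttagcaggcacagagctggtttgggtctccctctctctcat
Pdcd1: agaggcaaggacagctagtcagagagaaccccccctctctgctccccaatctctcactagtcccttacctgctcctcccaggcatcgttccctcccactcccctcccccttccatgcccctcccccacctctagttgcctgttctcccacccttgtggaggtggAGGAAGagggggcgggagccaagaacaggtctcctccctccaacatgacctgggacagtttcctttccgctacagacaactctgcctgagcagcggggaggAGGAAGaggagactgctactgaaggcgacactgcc
Ctla4: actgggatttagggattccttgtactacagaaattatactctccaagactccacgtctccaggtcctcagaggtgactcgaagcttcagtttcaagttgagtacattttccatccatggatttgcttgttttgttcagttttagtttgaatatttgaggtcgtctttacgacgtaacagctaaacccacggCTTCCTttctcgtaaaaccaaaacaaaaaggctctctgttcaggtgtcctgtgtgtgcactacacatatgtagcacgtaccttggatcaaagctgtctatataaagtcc
Cd3d: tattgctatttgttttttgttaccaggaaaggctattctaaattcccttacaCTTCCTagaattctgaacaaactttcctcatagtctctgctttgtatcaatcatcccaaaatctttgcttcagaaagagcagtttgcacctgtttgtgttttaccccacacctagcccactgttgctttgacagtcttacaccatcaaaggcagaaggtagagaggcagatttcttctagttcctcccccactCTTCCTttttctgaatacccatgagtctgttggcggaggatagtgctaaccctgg
Cd3e: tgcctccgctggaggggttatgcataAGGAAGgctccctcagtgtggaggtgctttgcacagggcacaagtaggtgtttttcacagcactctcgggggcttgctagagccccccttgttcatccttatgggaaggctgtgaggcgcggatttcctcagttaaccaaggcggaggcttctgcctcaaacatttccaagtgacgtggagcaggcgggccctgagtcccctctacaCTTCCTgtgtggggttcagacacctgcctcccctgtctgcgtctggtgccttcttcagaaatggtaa
Cd79a: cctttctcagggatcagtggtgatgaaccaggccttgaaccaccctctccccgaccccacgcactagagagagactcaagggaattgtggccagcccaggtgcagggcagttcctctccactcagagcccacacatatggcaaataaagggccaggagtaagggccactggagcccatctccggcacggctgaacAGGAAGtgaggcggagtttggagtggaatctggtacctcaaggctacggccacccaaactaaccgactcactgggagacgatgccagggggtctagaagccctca
All 6 hold the ETS letters, and Il7r holds those of RUNX as well. Over all members, 28 promoters of 24 genes had an entry, and 19 of these 28 (67.9%) held AGGAAG on either strand against 35.4% of the 32851 promoters of that length in the table. The RUNX letters TGTGGT were in 10 of 28 (35.7%) against 16.8% of all promoters. Of the other motifs searched on both strands, CTTTGAA (TCF and LEF) was in 1 member promoter, of Cd27, and GGTGTGA (T-box) in 1, of Nkg7. TCCC and GGGA spaced by 2 bases (EBF) were in 1, of Il2rg, and GGG and TTTCC spaced by 2 bases (NF-kB) in 1, of Ltb. Their shares of all promoters were 5.14%, 3.98%, 0.904% and 1.63%. No match of one motif overlapped a match of another in the member promoters. A match is a run of letters and no measured binding.

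Several members are neighbours in the genome, so their counts describe few places. In the annotation of GRCm38 (GENCODE M21), Cd3g (chr9:44969572-44980431), Cd3d (chr9:44981786-44987339) and Cd3e (chr9:44998740-45009627) lie in a row with gaps of 1354 and 11400 bases. Cd8b1 and Cd8a lie 35932 bases apart on chromosome 6, Cd5 and Cd6 50338 bases apart on chromosome 19, and Klrd1 and Klrk1 11547 bases apart on chromosome 6. Cd28, Ctla4 and Icos follow each other on chromosome 1 with gaps of 113640 and 62094 bases. The labels do not say whether counting used the strand. Exons of Cd247 share 3007 bases with the overlapping gene Pou2f1 on the other strand, and exons of Foxp3 share up to 853 bases with overlapping genes. Il2rg shares 728 bases with Gm20489 and Mzb1 shares 695 with SPATA24 on the same strand, so reads from those bases could have been given to either gene.

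Libraries of the wild-type group held 13189478 to 19493856 counts, those of the healthy knock-in group 18191087 to 21925419 and those of the sick group 10605546 to 22633684. The members took few of these counts. Per gene and library, wild-type mice had 0 to 94 with a median of 6, healthy knock-in mice 0 to 108 with a median of 13 and sick mice 0 to 306 with a median of 22. Levels under 1 CPM therefore rest on a few reads. The constant genes Trac, Trbc1, Trbc2, Igkc, Ighm and Igha, the bodies of the T cell receptor and antibody chains, are listed at 0 in all 12 libraries, so these defining products of T and B cells could not be read. Wild-type mouse 2 stood apart from its group, with a chi-square of 161.6 to 196.8 per degree of freedom against the other wild-type libraries, where other pairs within a group gave 11.84 to 79.17. Kidney identity was marked in wild-type mice by the proximal tubule list, whose 11 genes summed to 21083 to 55373 CPM there, 42539 to 54763 CPM in healthy and 1949 to 4881 CPM in sick knock-in mice. In whole kidney, fewer cells of a type and less RNA per cell cannot be told apart. The scaling factors were 1.23 to 1.39 in sick and 0.804 to 0.933 in the other libraries, and scaling by library totals alone moved the log2 fold change of the median gene from 0.02 to 0.61 between sick and wild-type mice.

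Sick knock-in kidneys carried more T cell RNA than wild-type kidneys. Of the 29 members tested, 19 were higher in sick mice, 0 were lower and 10 did not pass an edgeR adjusted p of 0.05, while 25.9% of all 15589 genes tested were higher and 25% lower. The 19 were all of the CD3 and zeta chains, the coreceptors, the proximal kinases and adaptor and the adhesion receptors, with Ctla4, Pdcd1, Foxp3, Il7r, Il2rg and Ltb. None of the cytotoxic, NK, B cell or plasma cell members was among them. The median log2 fold change of the 29 was 1.92, against 0.02 over all genes tested. DESeq2 and limma-voom each gave 19 higher and 0 lower members as well, limma-voom with Nkg7 and without Cd3d. With scaling by library totals alone 24 were higher, Cd28, Icos, Nkg7, Klrk1 and Cd79b among them. At an unadjusted edgeR p under 0.05 there were 20, all higher, as against 56.8% of all genes in either direction. In 16 of the 29 tested the lowest sick mouse lay above the highest wild-type mouse, as in 22.7% of all genes tested. These 16 were all among the 19 called higher, whose exceptions were Cd3d, Cd247 and Ltb. Over all genes 3535 lay apart in this way and 4032 were called higher, so lack of overlap among called members is not a separate result.

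**Figure D1:**
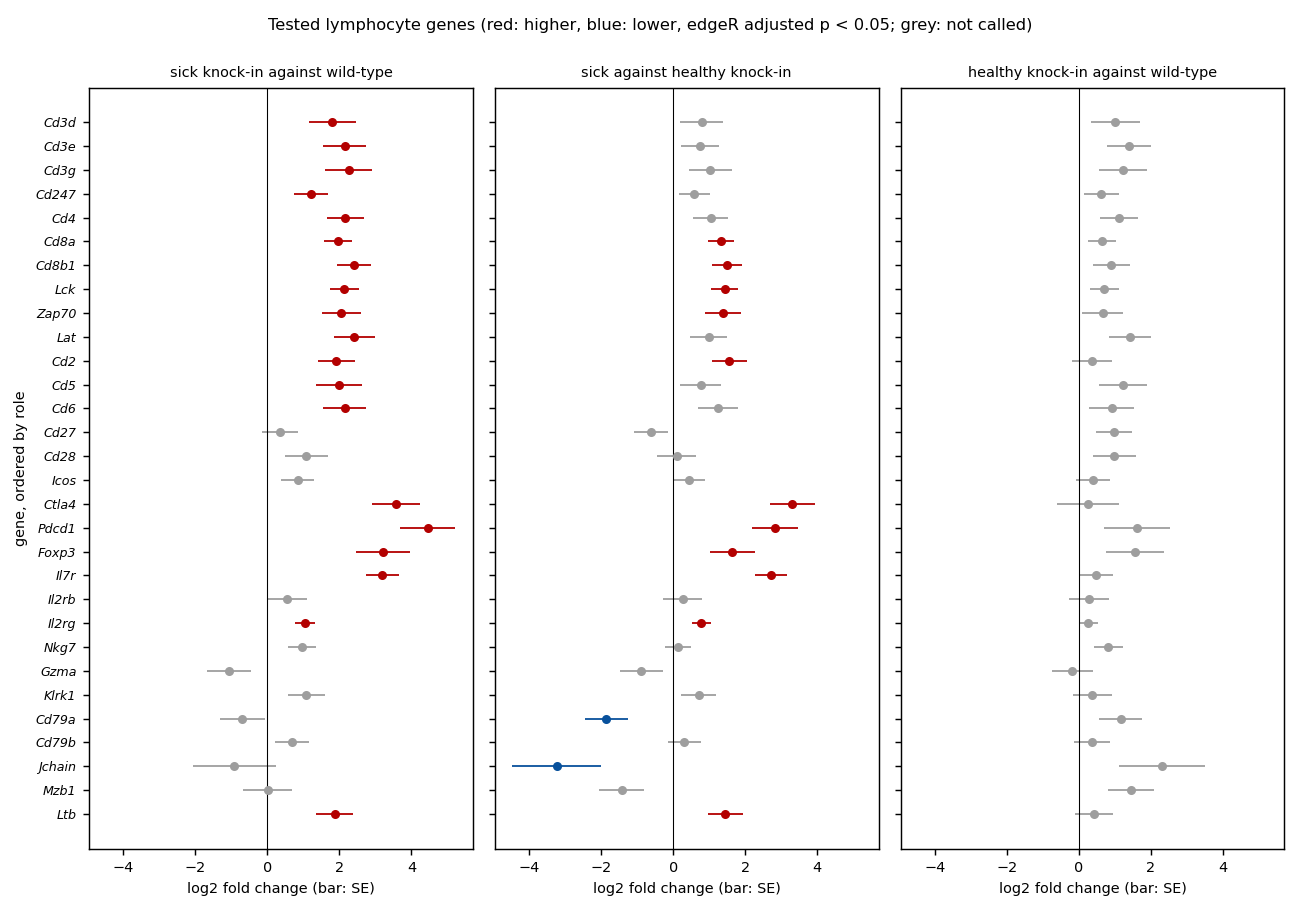
Log2 fold changes (x axis, with bars of 1 SE) of the 29 tested members and Jchain (y axis, ordered by role) in the 3 comparisons. Against wild-type mice the 19 higher members are red and reach 4.45 for Pdcd1; in sick against healthy knock-in mice 11 members are red and Cd79a and Jchain are blue; in healthy knock-in against wild-type mice every point is grey.

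The chains that carry the T cell receptor signal were all higher in sick than in wild-type mice. Cd3e, of the epsilon chain, stood at 0.566, 0.295, 0.173 and 0.718 CPM in the wild-type mice, 1.59, 0.682, 1.95 and 0.511 CPM in the healthy knock-in mice and 1.14, 1.03, 1.995 and 3.85 CPM in the sick knock-in mice. Each sick mouse lay above each wild-type mouse, while healthy mice 1 and 3 reached into the sick range. The rise was 4.43-fold (log2 fold change 2.15 ± 0.60 (SE), adjusted p = 0.00919). Cd3g, of the gamma chain, stood at 0.566, 0.707, 0.0867 and 0.587 CPM in the wild-type mice, 1.08, 0.787, 2.06 and 0.795 CPM in the healthy knock-in mice and 1.22, 0.730, 2.76 and 5.09 CPM in the sick knock-in mice. No wild-type mouse reached the sick range, though sick mouse 2 lay just above the top of the wild-type range. It rose 4.78-fold (log2 fold change 2.26 ± 0.65 (SE), adjusted p = 0.0116), or 3.00-fold without sick mouse 4 (adjusted p = 0.0484). Cd3d, of the delta chain, stood at 0.647, 0.177, 0.0867 and 0.326 CPM in the wild-type mice, 0.254, 0.577, 1.09 and 0.568 CPM in the healthy knock-in mice and 0.649, 0.432, 1.07 and 2.26 CPM in the sick knock-in mice. Here wild-type mouse 1 lay level with sick mouse 1 and above sick mouse 2. The rise of 3.49-fold (log2 fold change 1.80 ± 0.66 (SE), adjusted p = 0.0359) did not pass without wild-type mouse 2, 3 or 4 or without sick mouse 3 (adjusted p = 0.0897, 0.0894, 0.0676 and 0.0525). Without sick mouse 4 it was 2.23-fold (adjusted p = 0.149). In limma-voom it was 2.21-fold (adjusted p = 0.172). Cd247, of the zeta chain, stood at 0.243, 0.648, 0.433 and 0.718 CPM in the wild-type mice, 0.826, 0.577, 1.09 and 0.738 CPM in the healthy knock-in mice and 0.811, 0.531, 1.69 and 1.95 CPM in the sick knock-in mice. Sick mouse 2 lay inside the wild-type range. This rise of 2.32-fold (log2 fold change 1.21 ± 0.47 (SE), adjusted p = 0.0446) was lost when wild-type mouse 1, 2 or 3 or sick mouse 3 or 4 was left out (adjusted p = 0.117, 0.0541, 0.0951, 0.1 and 0.149). It was also lost with the 8 libraries of the comparison alone (0.0769) and with no filter on low counts (0.0613).

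Both kinds of coreceptor rose. Cd4, of the coreceptor of helper and regulatory T cells, stood at 0.890, 0.472, 0.520 and 2.28 CPM in the wild-type mice, 1.65, 2.26, 2.98 and 2.27 CPM in the healthy knock-in mice and 3.81, 2.59, 3.45 and 9.10 CPM in the sick knock-in mice. Sick mouse 4 was far above the rest and wild-type mouse 4 was the only wild-type mouse near the healthy knock-in level. Sick mice had 4.47-fold more of it (log2 fold change 2.16 ± 0.52 (SE), adjusted p = 0.00389), or 7.50-fold without wild-type mouse 4. Cd8a, of the alpha chain of the coreceptor of cytotoxic T cells, stood at 0.647, 0.589, 1.13 and 0.522 CPM in the wild-type mice, 1.08, 0.892, 1.37 and 1.08 CPM in the healthy knock-in mice and 1.58, 2.09, 4.53 and 3.08 CPM in the sick knock-in mice. The sick mice lay above all other mice, with mouse 3 and not mouse 4 the highest. The rise over wild-type was 3.89-fold (log2 fold change 1.96 ± 0.38 (SE), adjusted p = 0.000911). Cd8b1, of the beta chain that pairs with it, stood at 0.243, 0.177, 0.0867 and 0.261 CPM in the wild-type mice, 0.254, 0.525, 0.458 and 0.227 CPM in the healthy knock-in mice and 0.649, 0.730, 1.69 and 1.28 CPM in the sick knock-in mice. It followed the same order of sick mice at lower levels and rose 5.29-fold (log2 fold change 2.40 ± 0.47 (SE), adjusted p = 0.00104). Cd8a made up 18.6 to 68.4% of the summed counts of Cd4 and Cd8a in the wild-type group, 28.3 to 39.5% in the healthy group and 25.3 to 56.7% in the sick group, so the groups overlapped.

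The kinases and the adaptor behind the receptor rose as well. Lck, of the kinase that CD4 and CD8 bring to the receptor, stood at 1.05, 0.766, 0.780 and 2.67 CPM in the wild-type mice, 1.91, 1.94, 2.52 and 2.33 CPM in the healthy knock-in mice and 5.64, 3.49, 6.45 and 8.02 CPM in the sick knock-in mice. The sick mice lay above all others. Against wild-type mice the rise was 4.40-fold (log2 fold change 2.14 ± 0.40 (SE), adjusted p = 0.000712), or 6.72-fold without wild-type mouse 4. Zap70, of the kinase that binds the phosphorylated CD3 and zeta chains, stood at 0.485, 0.177, 0.173 and 0.587 CPM in the wild-type mice, 0.191, 0.472, 0.973 and 0.625 CPM in the healthy knock-in mice and 1.18, 0.996, 1.15 and 2.67 CPM in the sick knock-in mice. The other sick mice lay close together under mouse 4, and above every mouse of the other groups, with a rise of 4.13-fold over wild-type (log2 fold change 2.05 ± 0.54 (SE), adjusted p = 0.00706). Lat, of the adaptor that ZAP-70 phosphorylates, stood at 0.324, 0.236, 0.173 and 1.04 CPM in the wild-type mice, 1.08, 1.10, 1.77 and 0.965 CPM in the healthy knock-in mice and 1.58, 1.13, 2.53 and 4.62 CPM in the sick knock-in mice. It did not overlap between sick and wild-type mice and rose 5.32-fold (log2 fold change 2.41 ± 0.57 (SE), adjusted p = 0.00364), or 9.69-fold without wild-type mouse 4.

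The surface receptor genes Cd2, Cd5 and Cd6 rose with them. Cd2, of an adhesion receptor of T and NK cells, stood at 0.243, 0.236, 0.347 and 0.587 CPM in the wild-type mice, 0.254, 0.367, 0.515 and 0.681 CPM in the healthy knock-in mice and 0.811, 0.631, 1.69 and 2.42 CPM in the sick knock-in mice. Sick mouse 2 lay just above the highest wild-type mouse, and the rise was 3.78-fold (log2 fold change 1.92 ± 0.51 (SE), adjusted p = 0.00746). Cd5, of a receptor that dampens T cell receptor signals, stood at 0.405, 0.0589, 0.260 and 0.522 CPM in the wild-type mice, 0.890, 0.525, 0.973 and 0.511 CPM in the healthy knock-in mice and 0.689, 0.564, 0.844 and 2.88 CPM in the sick knock-in mice. Sick mouse 4 stood alone at the top. A rise of 3.95-fold (log2 fold change 1.98 ± 0.65 (SE), adjusted p = 0.0212) fell to 2.21-fold without that mouse (adjusted p = 0.0952) and did not pass without wild-type mouse 2 (adjusted p = 0.0538). Cd6, of a related adhesion receptor encoded beside it, stood at 0.566, 0.295, 0.260 and 0.783 CPM in the wild-type mice, 0.445, 1.10, 1.60 and 0.454 CPM in the healthy knock-in mice and 1.26, 1.06, 1.84 and 4.52 CPM in the sick knock-in mice. Sick mouse 4 was again the highest, and the rise was 4.45-fold (log2 fold change 2.15 ± 0.60 (SE), adjusted p = 0.00915), or 2.82-fold without it (adjusted p = 0.0361).

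Among the 5 costimulation and checkpoint receptors, the 2 inhibitory receptors rose and the 3 costimulatory receptors did not pass. Pdcd1, of PD-1, stood at 0, 0.118, 0.173 and 0.0652 CPM in the wild-type mice, 0.191, 0.105, 0.687 and 0.170 CPM in the healthy knock-in mice and 1.18, 1.06, 1.92 and 4.27 CPM in the sick knock-in mice. It was nearly unread in wild-type mice, with no count in mouse 1, and every sick mouse lay above every other mouse. It was the largest rise of the 29 members at 21.8-fold (log2 fold change 4.45 ± 0.77 (SE), adjusted p = 0.000444), or 14.3-fold without sick mouse 4. Ctla4, of CTLA-4, stood at 0.0809, 0.118, 0.173 and 0.0652 CPM in the wild-type mice, 0.191, 0.0525, 0.114 and 0.170 CPM in the healthy knock-in mice and 0.405, 0.797, 1.46 and 2.83 CPM in the sick knock-in mice. The wild-type and healthy mice shared a low range and the sick mice spread above it, with a rise of 11.9-fold (log2 fold change 3.57 ± 0.68 (SE), adjusted p = 0.000805), or 7.53-fold without sick mouse 4. Cd28, of the main costimulatory receptor, stood at 0.243, 0.177, 0.520 and 0.979 CPM in the wild-type mice, 1.08, 0.315, 1.43 and 1.02 CPM in the healthy knock-in mice and 0.892, 0.697, 0.614 and 1.90 CPM in the sick knock-in mice. The 3 groups overlapped. The difference between sick and wild-type mice did not pass (log2 fold change 1.09 ± 0.59 (SE), adjusted p = 0.143), though it did without wild-type mouse 4 (adjusted p = 0.041). Icos, of a costimulator that appears on activated T cells, stood at 1.05, 0.589, 0.693 and 0.913 CPM in the wild-type mice, 1.08, 0.892, 1.32 and 0.965 CPM in the healthy knock-in mice and 1.09, 0.697, 0.844 and 3.19 CPM in the sick knock-in mice. Sick mouse 4 alone was above the other mice and the difference did not pass (log2 fold change 0.84 ± 0.46 (SE), adjusted p = 0.148). Cd27, of a costimulatory receptor of resting T cells, lay at 0.177 to 0.693 CPM in wild-type mice. It lay at 0.315 to 1.25 CPM in healthy and 0.432 to 0.771 CPM in sick mice. All groups overlapped, and the difference between sick and wild-type mice did not pass (log2 fold change 0.35 ± 0.51 (SE), adjusted p = 0.588). Whether the inhibitory and the costimulatory receptors differ in their response was not tested.

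**Figure D2:**
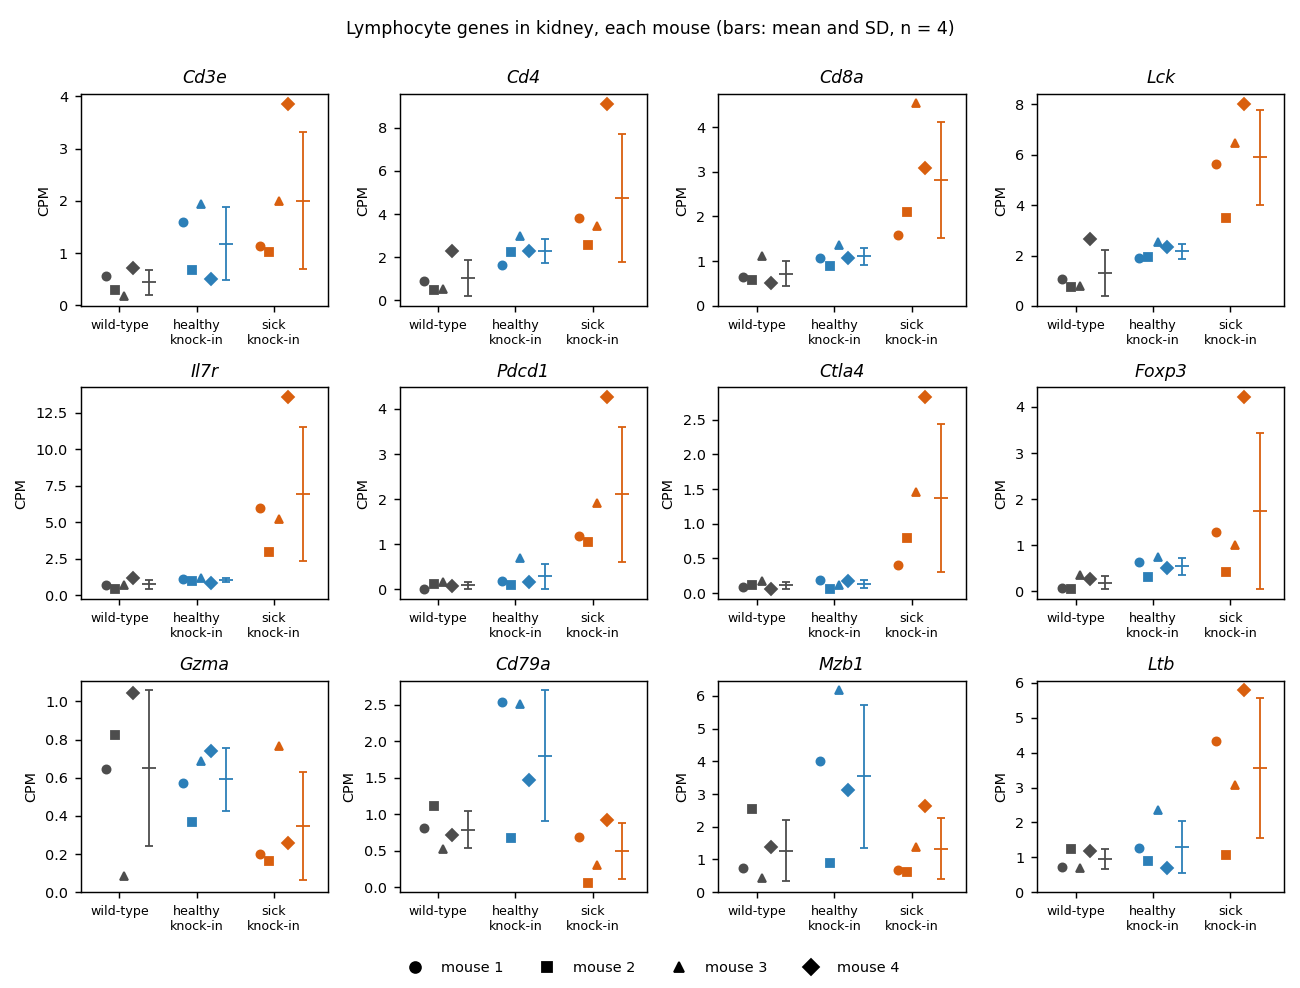
CPM (y axis, linear) of 12 members in each mouse (symbols by mouse number) of the 3 groups, with the mean and SD of the 4 mice beside the points. The sick mice of Cd8a, Lck, Il7r, Pdcd1 and Ctla4 lie above all other mice, sick mouse 4 is the highest for most genes, and Gzma, Cd79a and Mzb1 show no such rise.

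Foxp3, of the transcription factor that defines regulatory T cells, stood at 0.0809, 0.0589, 0.347 and 0.261 CPM in the wild-type mice, 0.635, 0.315, 0.744 and 0.511 CPM in the healthy knock-in mice and 1.30, 0.432, 0.998 and 4.21 CPM in the sick knock-in mice. All sick mice lay above all wild-type mice, but sick mouse 2 lay inside the healthy range and sick mouse 4 far above everything. It rose over wild-type 9.23-fold (log2 fold change 3.21 ± 0.75 (SE), adjusted p = 0.00333), or 4.82-fold without sick mouse 4 (adjusted p = 0.00828). Tbx21, of T-bet, the factor of type 1 helper and NK cells, was too low to test, with 10 counts over the 4 wild-type, 22 over the healthy and 30 over the sick mice.

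Of the 3 cytokine receptor genes, 2 rose. Il7r, of the interleukin 7 receptor on which resting and memory T cells and innate lymphoid cells depend, stood at 0.728, 0.413, 0.693 and 1.17 CPM in the wild-type mice, 1.14, 0.997, 1.20 and 0.852 CPM in the healthy knock-in mice and 6.001, 2.95, 5.22 and 13.6 CPM in the sick knock-in mice. The lowest sick mouse was above the highest of the 8 others by a wide margin. Over wild-type the rise was 9.14-fold (log2 fold change 3.19 ± 0.47 (SE), adjusted p = 0.000123), the smallest adjusted p of the members. Il2rg, of the common gamma chain shared by several interleukin receptors and also made by myeloid cells, stood at 4.37, 4.95, 3.90 and 6.13 CPM in the wild-type mice, 6.16, 5.41, 6.01 and 5.68 CPM in the healthy knock-in mice and 10.9, 6.51, 6.98 and 15.7 CPM in the sick knock-in mice. It had the most CPM per kilobase of exon of the members in wild-type mice other than Jchain, and its sick mice lay above the others by a small margin in mice 2 and 3. It rose 2.06-fold (log2 fold change 1.05 ± 0.27 (SE), adjusted p = 0.00595). Il2rb, of a chain of the interleukin 2 receptor that is high on NK cells, stood at 1.21, 0.943, 0.953 and 3.00 CPM in the wild-type mice, 1.65, 1.21, 3.66 and 1.02 CPM in the healthy knock-in mice and 2.15, 1.26, 1.23 and 4.42 CPM in the sick knock-in mice. The groups overlapped and it did not pass (log2 fold change 0.56 ± 0.55 (SE), adjusted p = 0.422). Ltb, of lymphotoxin beta, a membrane ligand by which lymphocytes organise lymphoid tissue, stood at 0.728, 1.24, 0.693 and 1.17 CPM in the wild-type mice, 1.27, 0.892, 2.35 and 0.681 CPM in the healthy knock-in mice and 4.34, 1.06, 3.07 and 5.81 CPM in the sick knock-in mice. Sick mouse 2 lay inside the wild-type range and the other sick mice above it, with a rise of 3.64-fold (log2 fold change 1.87 ± 0.51 (SE), adjusted p = 0.00876).

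Of the cytotoxic and NK members, none passed the edgeR test with TMM scaling between sick and wild-type mice. Nkg7, of a granule membrane protein of NK and cytotoxic T cells, lay at 0.173 to 0.707 CPM in wild-type, 0.630 to 0.858 CPM in healthy and 0.608 to 0.930 CPM in sick mice. It missed the threshold (log2 fold change 0.96 ± 0.38 (SE), adjusted p = 0.0532), which it passed without wild-type mouse 2 at 2.63-fold (adjusted p = 0.00957). Nkg7 also passed as higher in limma-voom at 2.84-fold (adjusted p = 0.0013), with upper-quartile scaling (0.0312) and with library totals alone (0.0034). Gzma, of granzyme A, lay at 0.0867 to 1.04 CPM in wild-type, 0.367 to 0.738 CPM in healthy and 0.166 to 0.767 CPM in sick mice. Its difference had the opposite sign and did not pass (log2 fold change -1.07 ± 0.60 (SE), adjusted p = 0.158). It passed as lower in sick mice without wild-type mouse 3 (log2 fold change -1.40, adjusted p = 0.0414) and without sick mouse 3 (-1.67, adjusted p = 0.0314), the lowest wild-type and the highest sick library. Klrk1, of the activating receptor NKG2D, did not pass (log2 fold change 1.08 ± 0.52 (SE), adjusted p = 0.0972), but did when scaled by library totals alone (adjusted p = 0.0124) or when wild-type mouse 4 was left out (0.0369). Of the members too low to test, Prf1, of the pore former perforin, had 23, 44 and 20 counts over the wild-type, healthy and sick mice. Its 4 sick mice, at 0.0514 to 0.307 CPM, lay under all 4 healthy mice, at 0.420 to 0.763 CPM. Gzmb, of granzyme B, had 16, 20 and 29 counts, and Klrd1, of the NK receptor chain CD94, had 14, 10 and 35.

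The B cell and plasma cell members did not differ between sick and wild-type mice by the test. Cd79a, of the alpha signalling chain of the B cell receptor, stood at 0.809, 1.1, 0.520 and 0.718 CPM in the wild-type mice, 2.54, 0.682, 2.52 and 1.48 CPM in the healthy knock-in mice and 0.689, 0.0664, 0.307 and 0.925 CPM in the sick knock-in mice. Sick mouse 2 had hardly any and the healthy mice the most. The difference between sick and wild-type mice did not pass (log2 fold change -0.70 ± 0.63 (SE), adjusted p = 0.38). Cd79b, of the beta chain, stood at 0.728, 1.53, 1.13 and 0.522 CPM in the wild-type mice, 1.91, 0.682, 2.003 and 0.511 CPM in the healthy knock-in mice and 1.58, 1.06, 1.38 and 2.31 CPM in the sick knock-in mice. All groups overlapped (log2 fold change 0.68 ± 0.48 (SE), adjusted p = 0.259). Mzb1, of a chaperone of antibody secretion in plasma and marginal zone B cells, stood at 0.728, 2.53, 0.433 and 1.37 CPM in the wild-type mice, 4.003, 0.892, 6.18 and 3.12 CPM in the healthy knock-in mice and 0.689, 0.631, 1.38 and 2.62 CPM in the sick knock-in mice. The mice of each group spread widely, and the difference between sick and wild-type mice did not pass (log2 fold change 0.01 ± 0.68 (SE), adjusted p = 0.992). Jchain, of the chain that joins secreted IgA and IgM, stood far above the other members at 5.66, 49.7, 8.84 and 101 CPM in the wild-type mice, 275, 7.77, 356 and 184 CPM in the healthy knock-in mice and 9.41, 1.69, 8.98 and 67.5 CPM in the sick knock-in mice. It ranged widely within every group and did not pass between sick and wild-type mice (log2 fold change -0.92 ± 1.16 (SE), adjusted p = 0.533). Ms4a1, of the B cell protein CD20, had 17, 23 and 10 counts over the wild-type, healthy and sick mice, with none in sick mouse 3. Blk, of a kinase of B cells, had 7, 12 and 51 counts, of which 35 of the last came from sick mouse 4.

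Between sick and healthy knock-in mice, which share the genotype, fewer members differed. Of the 29 tested, 11 were higher in sick mice against 24.5% of all genes tested, 1 was lower against 21.9%, and 17 did not pass. DESeq2 had 11 higher and 1 lower, and limma-voom 9 higher, without Foxp3 and Ltb, and 1 lower. Their median log2 fold change was 0.79, against 0.05 over all genes. The 11 were Cd8a, Cd8b1, Lck, Zap70, Cd2, Ctla4, Pdcd1, Foxp3, Il7r, Il2rg and Ltb. In 8 of the 29 tested members the sick mice lay above all healthy mice, a share near the 24% of all genes tested. These 8 were the members called higher without Cd2, Foxp3 and Ltb. Ctla4 was 9.93-fold higher (log2 fold change 3.31 ± 0.63 (SE), adjusted p = 0.000986), or 6.29-fold without sick mouse 4. Pdcd1 was 7.12-fold higher (log2 fold change 2.83 ± 0.63 (SE), adjusted p = 0.00284), or 4.65-fold without sick mouse 4 and 13.0-fold without healthy mouse 3, the one healthy mouse with a raised level. Il7r was 6.57-fold higher (log2 fold change 2.72 ± 0.44 (SE), adjusted p = 0.00034). The coreceptor chains Cd8a and Cd8b1 were 2.51-fold (log2 fold change 1.33 ± 0.36 (SE), adjusted p = 0.0085) and 2.84-fold higher (log2 fold change 1.51 ± 0.42 (SE), adjusted p = 0.0105). Lck was 2.698-fold higher (log2 fold change 1.43 ± 0.38 (SE), adjusted p = 0.00787). These 6 kept an adjusted p under 0.05 under every alternative fit of this comparison that tested them.

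The other 5 calls of higher members against healthy knock-in mice were each lost when any one of several mice was left out. Foxp3 was 3.12-fold higher (log2 fold change 1.64 ± 0.63 (SE), adjusted p = 0.0485) and lost its call without sick mouse 4 (1.63-fold, adjusted p = 0.29), without sick mouse 1 (0.0607) and without each healthy mouse (0.0651 to 0.12). Without a mouse other than sick mouse 4 these folds were 2.71 to 3.51. Foxp3 was also lost in limma-voom (2.11-fold, adjusted p = 0.173), with the 8 libraries of the comparison alone (0.0645), with no filter on low counts (0.0573) and with DESeq2 size factors (0.0509). Il2rg was 1.72-fold higher (log2 fold change 0.79 ± 0.27 (SE), adjusted p = 0.028) and lost it without sick mouse 1 or 4 or any healthy mouse (adjusted p = 0.0527 to 0.108), at 1.40-fold without sick mouse 4 and 1.67 to 1.75-fold without the others. Ltb was 2.74-fold higher (log2 fold change 1.45 ± 0.49 (SE), adjusted p = 0.0289) and lost it without healthy mouse 1, 2 or 4 or sick mouse 1 or 4 (0.0634 to 0.0971), at 2.16 to 2.704-fold. It was also lost in limma-voom (2.08-fold, adjusted p = 0.11) and with the replicate block (0.0604). Zap70 was 2.61-fold higher (log2 fold change 1.38 ± 0.50 (SE), adjusted p = 0.0377) and lost it without healthy mouse 1, 2 or 4 or sick mouse 4 (0.0682 to 0.142), at 1.93 to 2.68-fold, and with no filter on low counts (0.0512). Cd2 was 2.95-fold higher (log2 fold change 1.56 ± 0.48 (SE), adjusted p = 0.0184) and lost it without healthy mouse 1 or 2 or sick mouse 4 (0.0517 to 0.0734), at 2.19 to 2.76-fold. The CD3 and zeta chains, Cd4, Lat, Cd5 and Cd6 did not pass here, with log2 fold changes between 0.59 (Cd247) and 1.25 (Cd6), which passed without healthy mouse 3 (adjusted p = 0.0421). With library totals alone Cd3e, Cd3g, Cd247, Cd4, Lat, Cd6 and Klrk1 passed as higher as well (adjusted p = 0.0104 to 0.0457). All 8 were higher in sick than in wild-type mice, and whether the difference from healthy mice is smaller than that from wild-type mice was not tested.

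Among B lineage genes, Cd79a and Jchain were lower in sick than in healthy knock-in mice, while of 13 tested B and plasma cell genes beside the members 4 were higher and 0 lower. These 4 were Cd22 (3.18-fold), Ebf1 (2.54-fold), Sdc1 (4.27-fold) and Irf4 (15.4-fold). Epithelia also make Sdc1, and T cells and macrophages also make Irf4, so these rises need not be of B lineage RNA. Cd79a fell to 0.497 from 1.80 CPM (log2 fold change -1.85 ± 0.60 (SE), adjusted p = 0.0225), with healthy mouse 2 inside the sick range. The call was lost without healthy mouse 1 or 3 or sick mouse 3 (adjusted p = 0.0617, 0.0593 and 0.0507), and with scaling by library totals alone (0.0808). Jchain was 9.40-fold lower (log2 fold change -3.23 ± 1.24 (SE), adjusted p = 0.0473), again with healthy mouse 2 inside the sick range. Its call was lost without any one of healthy mice 1, 3 and 4 or sick mice 1, 2 and 3 (adjusted p = 0.0666 to 0.111), and without sick mouse 4 the difference was 31.2-fold (adjusted p = 0.0113). The Jchain call was also lost with library totals alone (6.24-fold, adjusted p = 0.0663), in limma-voom (0.0637) and with upper-quartile scaling (0.0523), and with the replicate block the difference was 16.9-fold. Mzb1 did not pass (log2 fold change -1.43 ± 0.63 (SE), adjusted p = 0.0811), but did without healthy mouse 2 (adjusted p = 0.0297) and without sick mouse 4 (0.031). The other chain of the same receptor, Cd79b, had a difference of the opposite sign that did not pass (log2 fold change 0.31 ± 0.47 (SE), adjusted p = 0.609).

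Between healthy knock-in and wild-type mice, no member passed. The smallest edgeR adjusted p was 0.912, and 0.308% of all genes tested were higher and 0.00641% lower. At an unadjusted p under 0.05, edgeR had 3 members (Lat, Cd3e and Mzb1, against 4.49% of all genes), DESeq2 had 4 and limma-voom 9. The shares of all genes for DESeq2 and limma-voom were not counted, so their 4 and 9 have no background beside them. The point estimates nonetheless lay to one side: 28 of the 29 log2 fold changes were above 0, Gzma being the exception, where 48.5% of all genes were above 0. The median was 0.82, against -0.01 over all genes. Only Cd3g had no overlap between the groups, as did 2.17% of all genes in that direction. Lat differed by 2.68-fold (log2 fold change 1.42 ± 0.58 (SE), adjusted p = 0.912) and Cd3e by 2.64-fold (log2 fold change 1.40 ± 0.61 (SE), adjusted p = 0.912). For all 19 members that were higher in sick than in wild-type mice, the mean of the healthy knock-in mice lay between the other group means. These 19 were chosen by a high sick and a low wild-type level, which favours such a place in advance. The share over all genes called higher was not counted. The members share cells and libraries, so their common sign is not 29 separate observations, and the comparisons share their control and sick mice.

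The mice of a group differed from each other in lymphocyte RNA, and in the sick group the order was not that of macrophage RNA. Sick mouse 4 was the highest sick mouse for 30 of the 35 members, and for 17 of the 19 called against wild-type, while it was the highest for 21.9% of all genes tested. Sick mouse 2 was the lowest for 24 of 35, and its share over all genes was not counted. Sick mouse 1 was the highest for 16 of 17 macrophage and monocyte genes but for 0 of the 35 members, as against 24.7% of all genes tested. Summed over the 35 members the level was 16.99 to 32.7 CPM in wild-type, 27.3 to 53.1 CPM in healthy and 36.9 to 121 CPM in sick mice, so sick mouse 2 lay under healthy mice 1 and 3. Healthy mouse 3 was the highest of its group for 25 of 35 members and wild-type mouse 4 for 20 of 35. Of the 17 macrophage and monocyte genes they were the highest for 7 and 14, so in these groups the same mouse led both lists. Over all genes tested these mice were the highest of their groups for 23.3% and 24.6%. Without wild-type mouse 2 and sick mouse 4 together, a choice made after the data were seen, 13 members were higher in sick than in wild-type mice and the median was 1.31. Cd3d, Cd3e, Cd247, Zap70, Cd2, Cd5 and Cd6 then did not pass (adjusted p = 0.0575 to 0.271), Nkg7 did. Foxp3 was then 3.82-fold, Il7r 5.34-fold, Cd4 2.59-fold and Lat 3.16-fold higher.

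**Figure D3:**
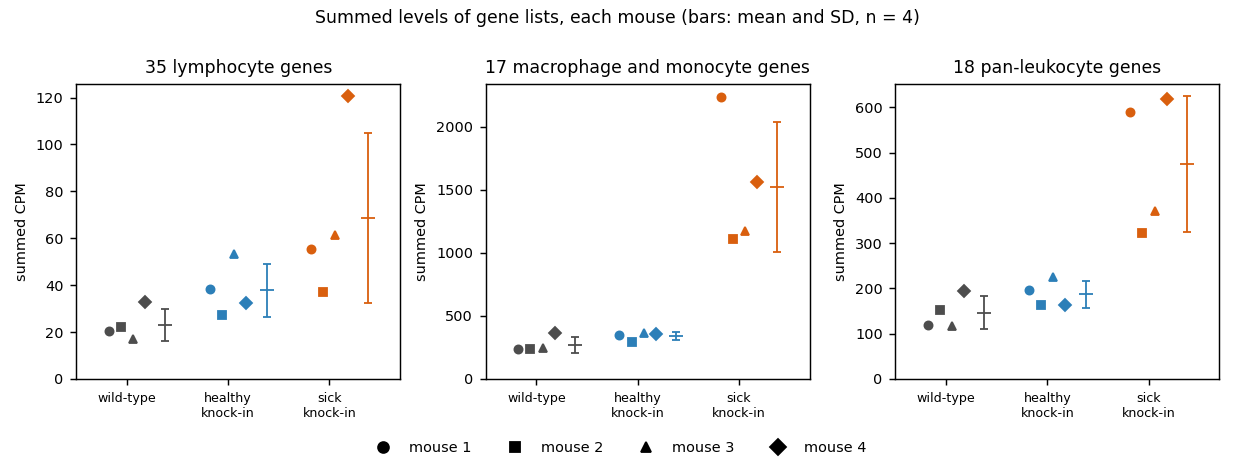
Summed CPM (y axes, linear, each with its own range) of the 35 members found by symbol, 17 macrophage and monocyte genes and 18 genes of leukocytes of any kind in each mouse, with the mean and SD of the 4 mice of a group. Sick mouse 4 is the highest for the members and sick mouse 1 for the macrophage genes, and in the lymphocyte panel sick mouse 2 lies within the range of the healthy knock-in mice.

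RNA of other leukocytes rose beside the members. Ptprc, of CD45, which all leukocytes carry, was 3.85-fold higher in sick than in wild-type mice (log2 fold change 1.95 ± 0.33, adjusted p = 0.000385) and stood at 7.49 to 21.0 CPM in wild-type, 14.1 to 21.2 CPM in healthy and 31.1 to 71.3 CPM in sick mice. Set against Ptprc within each library, which removes the scaling between libraries, the members parted. Il7r was 6.87, 5.51, 5.76 and 5.59% of Ptprc in the wild-type mice, 5.39, 7.06, 6.10 and 5.43% in the healthy and 10.02, 9.49, 14.98 and 19.0% in the sick mice. It was thus higher relative to Ptprc in all sick mice than in any other mouse. The summed Cd3d, Cd3e and Cd3g came to 16.8, 15.7, 2.88 and 7.76%, 13.8, 14.5, 25.9 and 11.96% and 5.01, 7.04, 16.7 and 15.7%. Here sick mice 3 and 4 lay among the others and sick mice 1 and 2 under all healthy mice. Il2rg was 29.2 to 66.1% of Ptprc in the wild-type mice, 29.0 to 38.3% in the healthy mice and 18.1 to 22.1% in the sick mice, and thus lower relative to Ptprc in every sick mouse than in any other. So was the sum of Cd79a and Cd79b, at 5.90 to 35.4%, 9.67 to 23.0% and 3.62 to 4.85%. The 4 cytotoxic genes summed to 5.04 to 33.9%, 11.4 to 14.5% and 1.96 to 6.39%, with all sick mice under all healthy mice. A gene that rose less than Ptprc has a lower ratio by that alone, and Il2rg rose 2.06-fold against 3.85-fold for Ptprc. How many of all genes lay apart in such a ratio was not counted, so these separations are not traits particular to the members. These ratios are descriptions without a test, and the mix of leukocytes behind Ptprc was not measured.

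**Figure D4:**
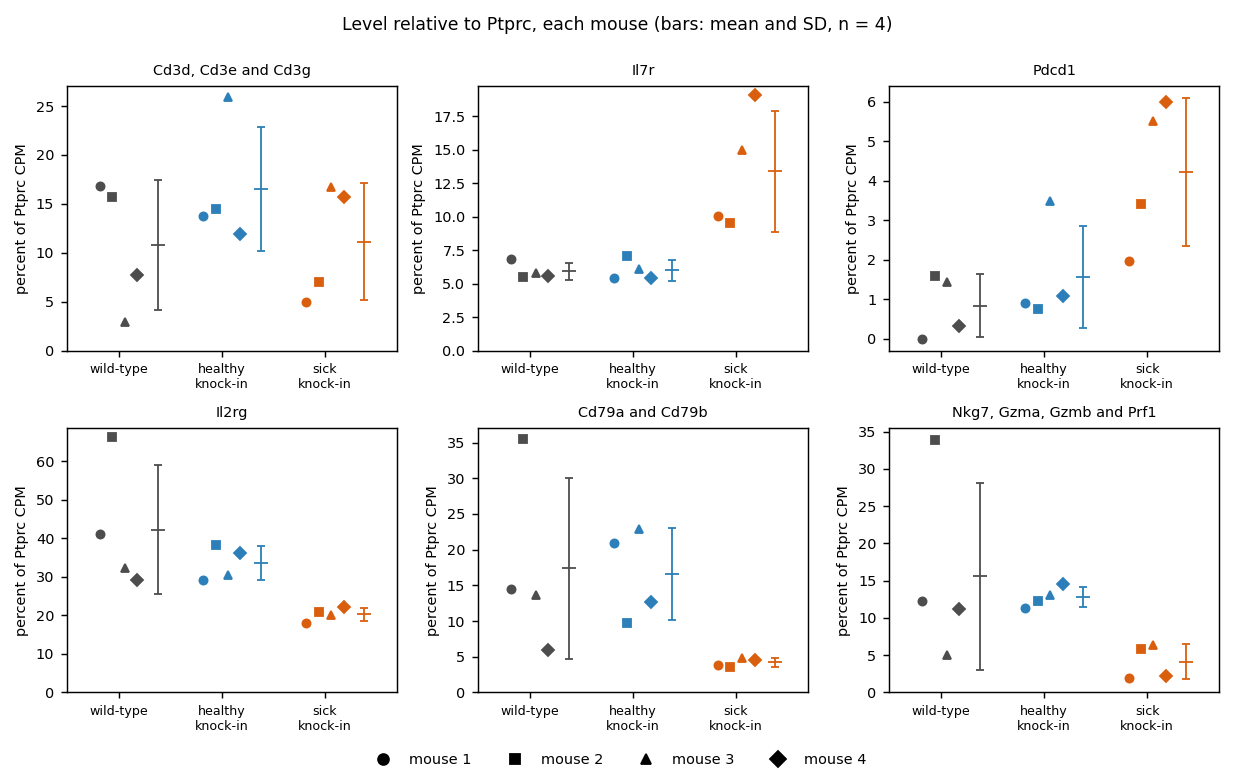
CPM of members or sums of members as a percent of the CPM of Ptprc in the same library (y axes, linear), in each mouse with the mean and SD of the 4 mice of a group. Il7r is higher in every sick mouse than in every other mouse. Pdcd1 is higher in every sick than in every wild-type mouse, but healthy mouse 3 lies above sick mice 1 and 2. Il2rg and the Cd79a and Cd79b sum are lower in every sick mouse than in every other mouse, and the summed Cd3d, Cd3e and Cd3g overlap between groups.

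Counts of some members were also set against the summed counts of Cd3d, Cd3e and Cd3g in place of Ptprc. Pdcd1 counts were 39.2, 48.5, 32.9 and 38.1% of the CD3 counts in the sick mice and 6.52, 5.13, 13.5 and 9.09% in the healthy mice. Ctla4 counts were 13.5, 36.4, 25.0 and 25.2% and 6.52, 2.56, 2.25 and 9.09%. In the healthy mice these shares rest on only 3, 2, 12 and 3 counts of Pdcd1 and 3, 1, 2 and 3 counts of Ctla4. Il7r counts were at least 89.5% of them in the sick mice and at most 48.7% in the healthy mice. For each of these 3 genes all sick mice lay above all healthy mice. Foxp3, at 17.1 to 43.2% in sick and 14.6 to 27.3% in healthy mice, and Cd4, at 59.2 to 127% and 56.5 to 121%, overlapped. So did Cd8a, Icos, Cd28, Lck and Nkg7. Gzma, at 2.29 to 13.2%, lay under the healthy mice, at 13.5 to 39.4%, but the ranges nearly met. Its shares rest on only 5, 5, 10 and 5 counts in the sick mice and 9, 7, 12 and 13 in the healthy mice. In wild-type mice the 3 CD3 genes had too few counts for such a ratio, with 4 in mouse 3.

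Levels can be compared between genes only per kilobase of exon. On that scale Jchain was far above the rest, at 16.4 CPM per kb in wild-type, 81.7 in healthy and 8.70 in sick mice, and is left out of the order that follows. Il2rg led in wild-type mice at 2.03 CPM per kb, ahead of Mzb1 at 1.04 and Cd79b at 0.683, and Foxp3 was last at 0.0408. In healthy knock-in mice Mzb1 led at 2.92, ahead of Il2rg at 2.44 and Cd79a at 1.24. In sick mice the order was Il2rg at 4.20, Ltb at 2.35, Lck at 2.01, Il7r at 1.49 and Cd4 at 1.17, while Ms4a1 was last at 0.0175. Il7r moved from rank 18 in wild-type to rank 4 in sick mice and Pdcd1 from rank 33 to rank 8, while Gzma moved from rank 4 to rank 22. These ranks rest on means of 4 mice whose coefficient of variation had a median over the members of 59.0% in wild-type, 47.0% in healthy and 62.3% in sick mice, so close neighbours in the order do not differ beyond their spread.

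Further genes of the same cells, from lists set beside the members, moved in part with them. Of 23 tested T cell receptor and signalling genes 15 rose between wild-type and sick mice and 12 rose against healthy mice, while Bcl11b fell in both comparisons. The gene with the highest level among those that rose was Cd44, an adhesion receptor also made by many other cells, from 3.02 ± 2.31 to 53.5 ± 18.7 CPM. Of 9 tested NK and cytotoxic genes 7 rose and 1 (Il12rb2) fell, led by Fcgr3, from 3.46 ± 2.15 to 41.7 ± 11.9 CPM, and Tyrobp, from 5.38 ± 2.24 to 30.2 ± 11.02 CPM, which myeloid cells express as well. Klrb1c, of the NK cell receptor NK1.1, was one of the 7, at 3.56-fold, and is named after its value was seen. Against healthy mice 6 of the 9 rose and 0 fell. Of 13 B and plasma cell genes 7 rose and 0 fell, led by Sdc1, from 11.8 ± 1.501 to 69.0 ± 12.9 CPM, which epithelia also make. The next was Irf4, from 1.46 ± 0.445 to 48.9 ± 44.3 CPM, which T cells and macrophages also make. Irf4 was 33.1-fold higher, with an SD nearly as large as the mean. Of 20 lymphoid organising chemokines, cytokines and receptors 8 rose and 1 (Il15) fell, led by Vcam1, an adhesion molecule that holds lymphocytes, from 13.4 ± 6.70 to 157 ± 21.3 CPM, and Cxcl16, a ligand for T cells, from 55.5 ± 21.4 to 120.4 ± 11.8 CPM. In healthy knock-in against wild-type mice 0 of the 172 tested genes of the 16 lists passed in edgeR. In DESeq2 1 passed and in limma-voom 3. An unadjusted p under 0.05 was had by 21, 22 and 50. Of all genes tested 4.49% had such a p in edgeR, and the shares for DESeq2 and limma-voom were not counted.

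Markers of the other cells of the kidney moved between the same groups, and their part in the members' differences was not tested. Of 18 leukocyte genes 16 rose (Laptm5, from 12.7 ± 4.79 to 89.1 ± 31.9 CPM, and Arhgdib, from 17.7 ± 7.06 to 48.6 ± 10.5 CPM). Their sum was 117 to 194 CPM in wild-type, 163 to 226 CPM in healthy and 322 to 618 CPM in sick mice. Of 17 macrophage and monocyte genes 14 rose (Lyz2, from 31.1 ± 22.1 to 418 ± 183 CPM, and Csf1r, from 70.2 ± 6.93 to 144 ± 55.8 CPM), with sums of 236 to 367, 291 to 366 and 1113 to 2237 CPM. Of 11 dendritic cell genes 5 rose (Irf8, 1.81-fold, and Zbtb46, 1.58-fold; against healthy mice also Bst2, 2.20-fold). Of 8 neutrophil genes 4 rose (Csf3r, 4.05-fold, and Il1b, 3.75-fold), and of 2 mast cell genes 2 rose (Kit, 2.43-fold, and Hdc, 2.30-fold). All 7 fibroblast and pericyte genes rose (Col1a2, 9.89-fold, and Col1a1, 14.7-fold), and 3 of 6 lymphatic endothelial genes did (Pdpn, 5.47-fold, and Lyve1, 8.15-fold). All 11 proximal tubule genes fell (Kap, 28.0-fold, and Acsm2, 11.7-fold), and Kap is listed at 0 in wild-type mouse 2. Of 7 distal nephron genes 3 fell and 1 rose (Slc12a3, 4.45-fold lower, and Aqp2, 3.83-fold higher). Of 6 podocyte genes 3 rose (Synpo, 2.12-fold). Of 8 endothelial genes 1 fell (Kdr, 2.08-fold), and of 6 red blood cell genes 1 fell (Slc4a1, 5.13-fold).

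The authors' deposited table gives its own fold changes and adjusted p-values for the members. At its adjusted p under 0.05, the authors' deposited table has 9 members higher in sick than in wild-type mice, Cd4, Cd8a, Cd8b1, Lck, Lat, Ctla4, Pdcd1, Foxp3 and Il7r, and none lower. Of the genes with an adjusted p there, 11.5% were higher and 8.96% lower in the authors' deposited table. Between sick and healthy knock-in mice the authors' deposited table has Ctla4, Pdcd1 and Il7r higher, where 9.07% of genes were, and none lower, where 7.81% were. Between healthy knock-in and wild-type mice the authors' deposited table has no member past the threshold, where 0.237% of genes were higher and 0.00483% lower. All 9 and all 3 are among the members higher in the edgeR test of the same comparison.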

How the data were processed

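Kidney RNA of 12 mice was sequenced, 1 library per mouse. Extraction used the miRvana kit with a DNase step, and libraries the Trueseq kit, per the labels' protocols. The submitters' processing notes name Trim Galore 0.3.7, TopHat2 2.0.11, Cufflinks, DESeq2 1.12.4 and the build GRCm38. Which program counted reads, with which annotation and whether by strand, the labels do not say. The deposited table holds raw counts for each Ensembl gene, per the file headers, and the authors' own log2 fold changes and adjusted p-values. Its 12 columns of normalized counts were not used. No libraries held identical counts. A p-value here sets a difference between groups against the spread between these mice. The labels do not say how mice were chosen, so how far the results hold for other mice is not known.

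Groups came from the sample titles. The members and the 16 other lists were chosen with earlier results of these data known. Counts were fitted with edgeR 4.0.16 in R 4.3.3: filterByExpr by group kept 15589 genes, libraries were scaled by TMM, and all 12 libraries entered 1 quasi-likelihood model with a mean for each group and no covariates (common biological coefficient of variation 0.270). F tests between groups were adjusted by Benjamini-Hochberg over all genes tested, with a threshold of 0.05. Each SE was taken as the log2 fold change divided by the root of its F value. The script was tested on simulated counts. A member is given in all 12 libraries if it passed in a comparison or reached a mean of 1 CPM in a group, and the others by range or count. Of each other list the 2 passing genes with the highest mean CPM are named, with values for sick against wild-type mice, and from sick against healthy mice only where they differ and passed there alone or in another direction. A few genes of these lists are not reported here. Genes outside this rule named for a count of 5 or fewer were chosen after their values were seen. Alternatives were scaling by upper quartiles, by DESeq2 size factors or by library totals alone, no filter, at least 1 CPM in 4 libraries, robust dispersion, a replicate block, DESeq2 1.42.0, limma 3.58.1 (voom with quality weights), the 8 libraries of a comparison alone, a log2 fold change of at least 1, an adjusted p of 0.01 and leaving out each library. Positions and exon lengths are from GENCODE M21, and promoters from RefSeq, in which 12 members had no entry.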

Additional observations from a re-analysis of the deposited data

Results flagged for a closer look

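In each group of 4 mice the highest and the lowest value of each member were compared with the rest by Dixon's 95% criterion, which sets the gap to the next mouse against the range, in 108 groups. It singled out 10 values where chance alone gives about 1 in 20, and all 10 were the highest of their group. Sick mouse 4 was far above the other sick mice for Zap70 (2.67 CPM against 0.996 to 1.18), Cd5 (2.88 against 0.564 to 0.844), Cd27 (0.771 against 0.432 to 0.487), Icos (3.19 against 0.697 to 1.09) and Jchain (67.5 against 1.69 to 9.41). Sick mouse 3 was above the other sick mice for Gzma (0.767 against 0.166 to 0.257). Healthy mouse 3 was above the other healthy mice for Lat (1.77 against 0.965 to 1.10) and Pdcd1 (0.687 against 0.105 to 0.191). Wild-type mouse 4 was above the other wild-type mice for Lck (2.67 against 0.766 to 1.05) and Il2rb (3.00 against 0.943 to 1.21). The members vary together between mice, so these values are not separate events, and their cause was not tested.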

How the results depend on the processing

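Of the values recomputed under 12 other settings a comparison and with each library left out, none changed sign after passing. In sick against wild-type mice the number of higher members was 19 in the main test, DESeq2 and limma-voom, 24 with library totals alone, and 12 with at least 1 CPM in 4 libraries, where 17 members were tested. Leaving out each library gave 16 to 20 higher members, medians of 1.32 to 2.09 and 0 to 1 lower member, which was Gzma. Without wild-type mouse 2 and sick mouse 4 the median was 1.31. The 12 members Cd3g, Cd4, Cd8a, Cd8b1, Ctla4, Foxp3, Il2rg, Il7r, Lat, Lck, Ltb and Pdcd1 passed in every fit that tested them. In sick against healthy knock-in mice the number of higher members was 11 in the main test, 5 at an adjusted p of 0.01, 18 with library totals alone and 7 with at least 1 CPM in 4 libraries. Leaving out each library gave 6 to 11. The number of lower members was 1, or 0 at an adjusted p of 0.01, 0 with library totals alone, 2 with no filter, and 0 to 3 with each library left out. Apart from the stricter filter, which tested fewer members, and the scaling and threshold themselves, the cause was not tested.

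With library totals alone 8420 genes were higher and 1605 lower in sick than in wild-type mice, against 4032 and 3901 with TMM, and 8581 and 1425 against 3814 and 3418 in sick than in healthy mice. With upper-quartile scaling the counts were 4746 and 3168, and 4559 and 2830. The log2 fold change of the median gene was 0.61 and 0.63 with totals alone, against 0.02 and 0.05 with TMM.

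Mice of the same number in different groups are not stated to be related, and their deviations from the group means had correlations of -0.26 to 0.24, with 4 of 12 pairs over 0.1 and 5 of 12 libraries closest to their own number. With the replicate block 17 members were higher in sick than in wild-type mice (median 1.87), Cd3d (adjusted p = 0.0654) and Cd247 (0.0589) not passing, and 10 were higher and 1 lower in sick than in healthy knock-in mice (median 0.70), Ltb not passing (0.0604). None differed between healthy knock-in and wild-type mice, where the median was 0.87.

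Low counts limit what could be seen: 30 of 35 members had a mean under 1 CPM in wild-type mice, and 11 had fewer than 20 counts over the 4 wild-type libraries.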
